A study of Oryza sativa with 8 samples.

Results

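WRKY53, WRKY24 and WRKY70 are 3 related rice transcription factor genes, described here across flag leaf libraries of 3 genotypes. They were chosen as the loci Os05g0343400 (WRKY53, chromosome 5), Os01g0826400 (WRKY24, chromosome 1) and Os05g0474800 (WRKY70, chromosome 5), which are 3 of the 32166 loci in the deposited table. Each of the 3 is represented by 1 transcript, as are 84.7% of all loci, so the locus value and the transcript value are the same number and no shift between isoforms could be measured. The deposited table gives identifiers only. The name WRKY24 was placed on its locus through a RefSeq gene table, whereas the names WRKY53 and WRKY70 are not in that table and their pairing with these loci was not checked.

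WRKY proteins bind the W-box, a short DNA element common in promoters of defence genes. WRKY53, WRKY24 and WRKY70 belong to the class with a pair of WRKY domains. In rice, WRKY53 is a target of the MKK4, MPK3 and MPK6 kinase cascade. It acts in immunity and herbivore responses, and it promotes brassinosteroid responses such as a wide leaf angle. WRKY24 is known to repress gibberellin and abscisic acid signalling in aleurone cells, and WRKY70 acts in the response to chewing herbivores, where it favours jasmonate over gibberellin. The GSK2 kinase holds brassinosteroid signalling down and can phosphorylate the WRKY53 protein. The values below are transcript levels and do not measure the proteins.

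All libraries came from total RNA of the flag leaf of cultivar ZH11, grown at 30 °C for 10 h of day and 24 °C for 14 h of night and taken at heading according to the sample labels (the series text says booting). The wild type had 2 libraries, numbered 1 and 3. The label GSK2-RNAi, which names an RNA interference construct against GSK2, had 3. The label GSK2-RNAi_oswrky53, which names that construct together with a WRKY53 mutant allele, also had 3. Every library title also carries the letters CK, which the labels do not explain. The labels name neither the promoter of the construct, nor the number of independent lines, nor the kind of WRKY53 mutation, and nothing says that libraries of 1 genotype are from different plants. The p-values therefore measure only the spread between these samples, which may be technical.

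The table holds normalized counts, with library totals between 20.87 and 28.03 in units of 1e6 and approximate depths between 19.87 and 38.77 in units of 1e6 reads. GSK2 (Os05g0207500), the gene named by the construct, stood at 105 and 98.5 normalized counts in the wild type, at 795, 741 and 819.6 in the GSK2-RNAi-labelled libraries and at 182, 219 and 155 in the GSK2-RNAi_oswrky53-labelled ones. Its transcript thus went against the label, with a log2 difference of 2.94 ± 0.17 (SE, limma adjusted p = 0.000107) between the GSK2-RNAi-labelled libraries and the wild type. Whether reads from the construct contribute to this value, and whether labels were exchanged between samples, was not tested, and an exchange would change what each group difference below means. Groups are therefore called by their labels, and none of the directions below can be read as an effect of reduced GSK2 transcript. The leaf marker RCA, which encodes Rubisco activase, was abundant in every library but lower in the GSK2-RNAi-labelled ones without overlap, at 651547 and 546480 in the wild type, 306256, 238101 and 283969 under the GSK2-RNAi label and 485529, 485407 and 453372 under GSK2-RNAi_oswrky53. Under the GSK2-RNAi label RCA differed from wild type by -1.12 ± 0.60 (SE) in log2 units, which did not pass the test (limma adjusted p = 0.212). Of all genes tested, 26.2% were lower than in the wild type without overlap under that label.

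Of 5 floral MADS-box genes used as markers of other tissue, MADS7, MADS8 and MADS58 were at or near 0, at 1.90 or less in every library. MADS16 lay between 111 and 529.6 with overlapping groups. MADS3 stood at 8.68 and 5.69 in the wild type, at 16.2, 21.6 and 51.8 in the GSK2-RNAi-labelled libraries and at 3.30, 3.28 and 2.09 in the GSK2-RNAi_oswrky53-labelled ones, and its groups did not overlap. Of all genes tested, 29.1% lay higher under GSK2-RNAi than in the wild type without overlap. Under GSK2-RNAi_oswrky53, 11.6% lay lower than in the wild type and 19.1% lower than under GSK2-RNAi. MADS3 entered the fit through the GSK2-RNAi-labelled libraries alone, so no test of it is given. The 5 markers summed to between 187 and 339 in the wild type, between 307 and 393 under GSK2-RNAi and between 114 and 533 under GSK2-RNAi_oswrky53.

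The level of each gene by genotype was examined first. WRKY53 stood at 3992 and 3209 normalized counts in the wild type, at 7396, 7843 and 8559.6 in the GSK2-RNAi-labelled libraries, and at 11611, 7686 and 5971 in the GSK2-RNAi_oswrky53-labelled ones. Both transgenic groups lay above the wild type without overlap, and they overlapped each other. WRKY53 transcript was thus present in every library labelled with the mutant allele, including the library with the highest value of all, and whether these plants carry the allele is known from the label only.

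WRKY24 stood at 52.6 and 52.1 in the wild type, at 254, 215 and 538 in the GSK2-RNAi-labelled libraries, and at 328, 291 and 142 in the GSK2-RNAi_oswrky53-labelled ones. The wild type was again lowest without overlap, and the other groups overlapped. The spread within the transgenic groups was wide, with an SD of 52.6% of the mean in the GSK2-RNAi-labelled libraries (n = 3) and 38.9% in the GSK2-RNAi_oswrky53-labelled ones (n = 3).

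WRKY70 was the member whose 3 groups did not overlap at all. It stood at 8.64 and 11.4 in the wild type, at 85.4, 93.1 and 115 in the GSK2-RNAi-labelled libraries, and at 37.3, 41.4 and 26.2 in the GSK2-RNAi_oswrky53-labelled ones. The order was therefore wild type, then GSK2-RNAi_oswrky53, then GSK2-RNAi. The wild type values rest on about 12.0 reads in each library, as estimated from the approximate value of 1 read, so the lowest group carries a large counting error. GSK2 also had 3 groups without overlap, in the same order, and the share of all genes with such a separation was not counted. Pair by pair, 29.1% of genes tested lay higher under GSK2-RNAi than in the wild type without overlap. Under GSK2-RNAi_oswrky53, 15.7% lay higher than in the wild type and 19.1% lower than under GSK2-RNAi. Levels are not compared between the 3 genes, because the values are not per transcript length.

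**Figure D1:**
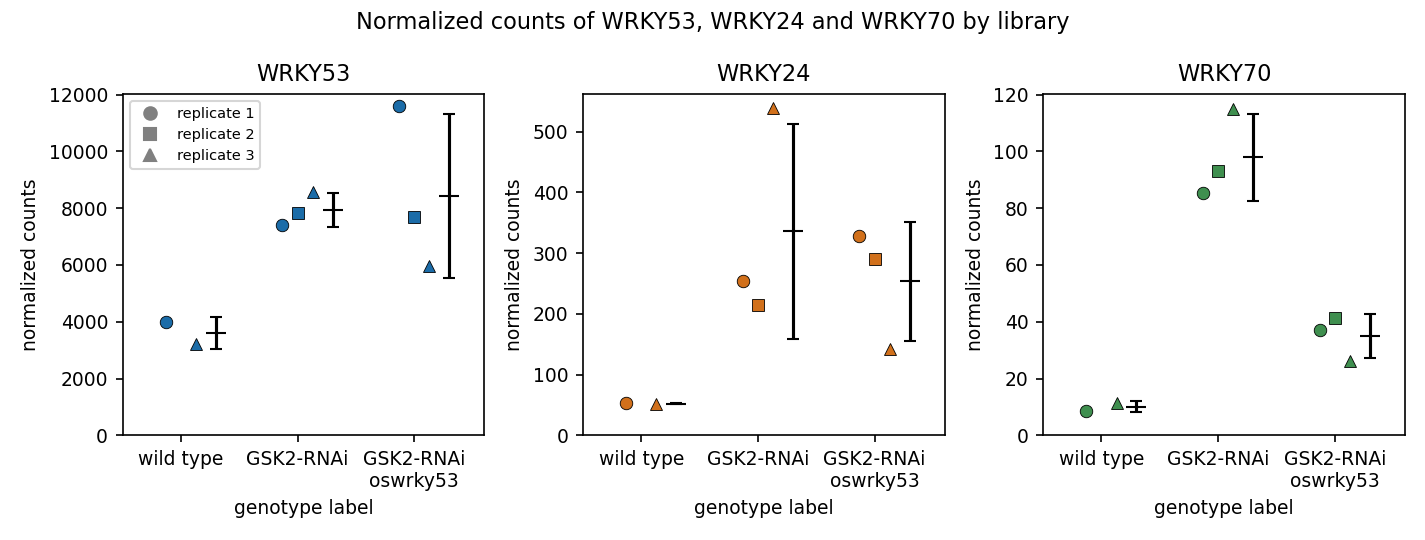
Normalized counts (vertical axes, from 0, a separate scale for each gene) of WRKY53, WRKY24 and WRKY70 in 8 libraries by genotype label. Points are libraries, and the bar beside each group is the mean ± SD (n = 2 for the wild type and 3 for each other group). The wild type is lowest in each panel, and the WRKY70 groups separate fully, with 26.2 to 41.4 in the GSK2-RNAi_oswrky53-labelled libraries between 8.64 to 11.4 and 85.4 to 115.

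The comparison of the GSK2-RNAi-labelled libraries with the wild type is the one the series labels set up for the GSK2 construct. All 3 genes rose, against a background in which 13.3% of 25325 genes tested were called higher and 29.1% lay higher without overlap. The calls over all genes were 3364 higher and 2926 lower, and they became 8044 higher and 1463 lower when libraries were scaled to equal totals. WRKY53 rose 2.20-fold in the group mean, and its log2 change was 1.15 ± 0.26 (SE, limma adjusted p = 0.0152). WRKY24 rose 6.42-fold, by 2.54 ± 0.45 in log2 units (SE, limma adjusted p = 0.00566).

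WRKY70 rose 9.78-fold, by 3.17 ± 0.32 in log2 units (SE, limma adjusted p = 0.000791). It ranked at position 195 by p among the 25325 genes, and 2.52% of them had a larger absolute change. The corresponding share was 4.36% for WRKY24 and 19.4% for WRKY53, so the change of WRKY53 was of a size that many genes reached. The WRKY53 call was lost without wild type replicate 3 (log2 change 0.99, limma adjusted p = 0.0819). The calls of WRKY24 and WRKY70 held in each of 18 alternative settings, with log2 changes from 2.14 to 2.92 and from 2.77 to 3.53. In the same libraries the leaf marker RCA was lower without overlap, as were 26.2% of all genes, and did not pass the test. The floral marker MADS3, which entered the fit through these libraries alone, was higher without overlap, as were 29.1% of all genes. MADS16 overlapped, and MADS7, MADS8 and MADS58 were at or near 0. The part of these marker differences in the results was not tested.

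The comparison of the GSK2-RNAi_oswrky53-labelled libraries with the GSK2-RNAi-labelled ones is the one in which the labels differ by the WRKY53 mutant allele. GSK2 transcript also differed between these groups, by -2.09 ± 0.15 in log2 units (SE, limma adjusted p = 0.00067). The part of the GSK2 difference in the values below was not tested. Among the members, WRKY70 fell, and WRKY53 and WRKY24 did not pass the test. The WRKY70 mean was 2.80-fold lower, at 35.0 ± 7.82 against 97.9 ± 15.4 normalized counts (SD, n = 3 each). Its log2 change of -1.47 ± 0.28 (SE, limma adjusted p = 0.0129) compares with a background of 7.7% of genes called lower and 19.1% lower without overlap. The calls over all genes were 2223 higher and 1949 lower, and with equal totals 1144 higher and 6194 lower. In 5.11% of all genes tested the change was more negative. The call was narrowly lost without the library labelled GSK2-RNAi replicate 2 (log2 change -1.50, adjusted p = 0.0509) and without that labelled GSK2-RNAi replicate 3 (-1.35, adjusted p = 0.0521). RCA was higher in the GSK2-RNAi_oswrky53-labelled libraries than in the GSK2-RNAi-labelled ones without overlap, as were 20% of all genes. Its log2 change of 0.79 did not pass the test (limma adjusted p = 0.354). MADS3, which entered the fit through the GSK2-RNAi-labelled libraries alone, was lower without overlap, as were 19.1% of all genes. MADS16 overlapped, and the other floral markers were at or near 0. The part of these markers in the WRKY70 difference was not tested.

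WRKY53 differed by 0.03 ± 0.23 on the log2 scale in this comparison (SE, limma adjusted p = 0.939), with a 95% interval from -0.50 to 0.57. The sign of that difference turned with equal library totals (-0.28) and with quantile normalization (-0.32). WRKY24 differed by -0.37 ± 0.40 (SE, limma adjusted p = 0.568), with a 95% interval from -1.30 to 0.55. It turned to 0.03 without the library labelled GSK2-RNAi replicate 3, the one with the highest WRKY24 value. These intervals do not show that WRKY53 and WRKY24 were unaffected, since a change of WRKY24 as large as 2-fold downward lies within its interval.

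In the GSK2-RNAi_oswrky53-labelled libraries against the wild type, 0 of the 3 genes passed limma's adjusted threshold, while 3 of 3 had an unadjusted p under 0.05. Few genes were called in this comparison at all: 0.336% of 25325 in either direction, and 8.09% were higher at an unadjusted p under 0.05. WRKY53 was 2.34-fold above the wild type, with a log2 difference of 1.18 ± 0.26 (SE, limma adjusted p = 0.133). WRKY24 was 4.84-fold above it, with a log2 difference of 2.16 ± 0.45 (SE, limma adjusted p = 0.113). WRKY70 was 3.49-fold above it, with a log2 difference of 1.69 ± 0.32 (SE, limma adjusted p = 0.0865). Each lay above both wild type libraries without overlap, as did 15.7% of all genes.

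**Figure D2:**
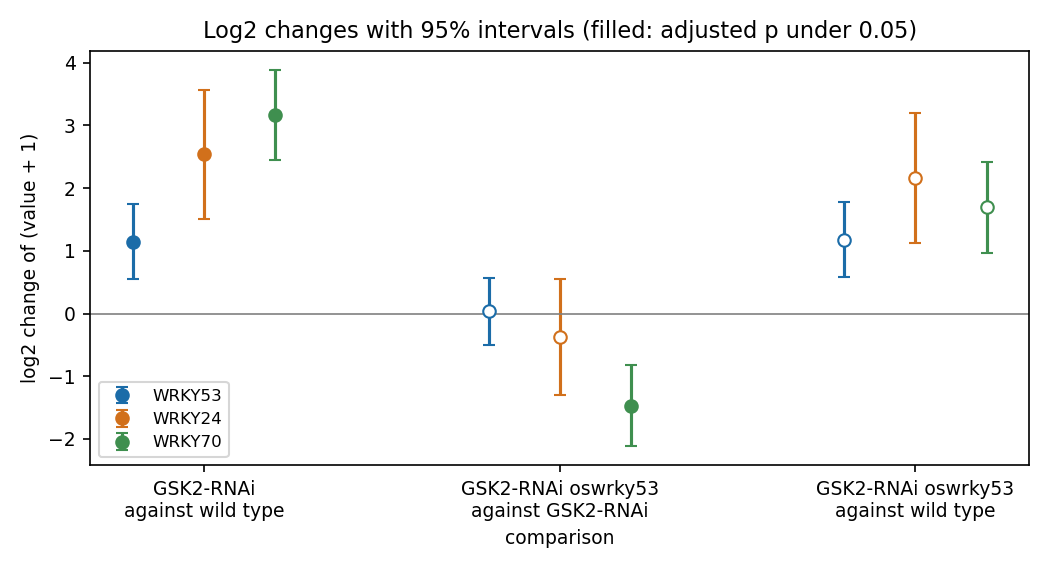
Log2 changes of value + 1 (vertical axis) of the 3 genes in 3 comparisons (horizontal axis), with 95% intervals from the limma fit to 8 libraries. Filled points have an adjusted p under 0.05. WRKY70 is the one filled point in the middle comparison, at -1.47, while WRKY53 lies at 0.03 there.

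Setting the changes against those of all genes tested shows how far out each member lies. In the GSK2-RNAi-labelled libraries against the wild type, 88.7% of genes had a lower log2 change than WRKY53, 96.5% a lower one than WRKY24 and 97.8% a lower one than WRKY70. In the GSK2-RNAi_oswrky53-labelled libraries against the wild type these shares were 95.5%, 98.8% and 97.9%. Both comparisons use the same 2 wild type libraries, so the second set of shares is no independent repeat of the first.

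**Figure D3:**
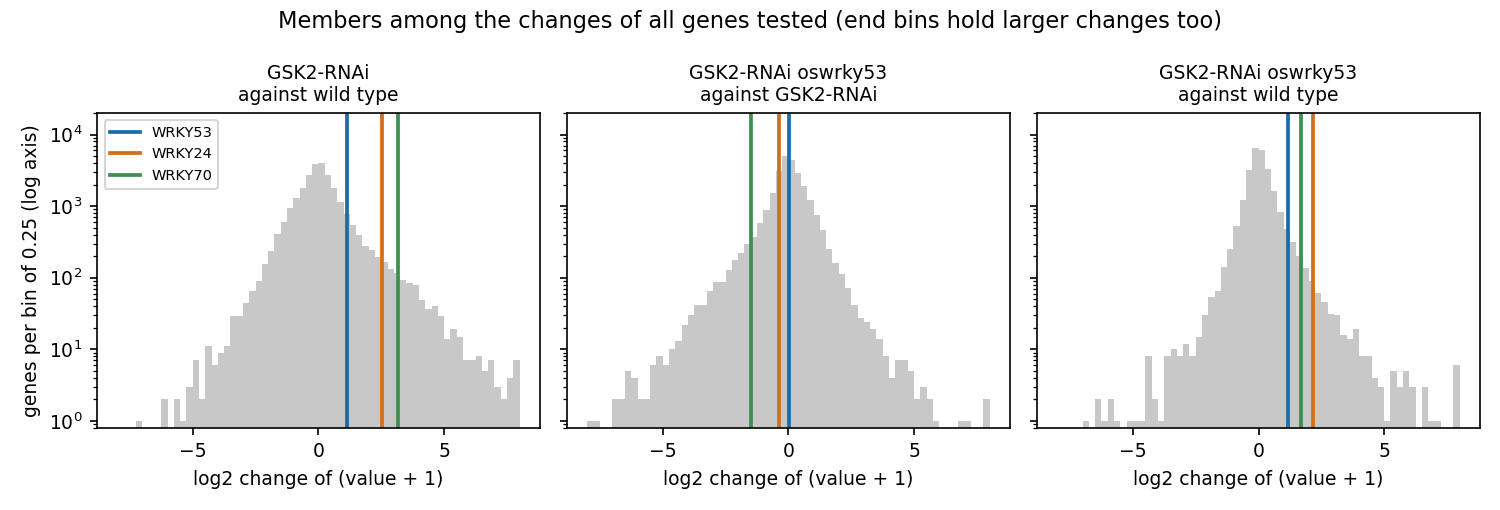
Distribution of log2 changes of all 25325 genes tested (grey bars, number of genes per bin on a log axis) in each comparison, with lines at WRKY53, WRKY24 and WRKY70. The lines of WRKY24 and WRKY70 stand in the upper tail in the left and right panels, and WRKY70 stands in the lower tail in the middle panel at -1.47.

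Whether the 3 genes changed unequally was measured by their ratios within each library, taken between values + 1. Only the change of a ratio is read here, since its level also depends on transcript length. The log2 ratio of WRKY70 to WRKY53 was -8.69 and -8.02 in the wild type, -6.42, -6.38 and -6.21 in the GSK2-RNAi-labelled libraries, and -8.25, -7.50 and -7.78 in the GSK2-RNAi_oswrky53-labelled ones. The GSK2-RNAi-labelled libraries stood apart from both other groups, which overlapped each other. The ratio was higher by 2.02 in the GSK2-RNAi-labelled libraries than in the wild type (two-sided exact permutation p = 0.2, the smallest that 2 against 3 libraries allow), and by 1.38 with quantile normalization. It differed by -1.51 between the GSK2-RNAi_oswrky53-labelled libraries and the GSK2-RNAi-labelled ones (two-sided exact permutation p = 0.1, the smallest that 3 against 3 allow).

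The log2 ratio of WRKY70 to WRKY24 was -2.47 and -2.10 in the wild type, -1.56, -1.20 and -2.22 in the GSK2-RNAi-labelled libraries, and -3.10, -2.78 and -2.39 in the GSK2-RNAi_oswrky53-labelled ones. The last 2 groups did not overlap (difference -1.10, exact permutation p = 0.1), so WRKY70 was lower relative to both other genes in every library labelled GSK2-RNAi_oswrky53 than in any labelled GSK2-RNAi. The log2 ratio of WRKY24 to WRKY53 rose from -6.22 and -5.92 in the wild type to -4.86, -5.18 and -3.99 in the GSK2-RNAi-labelled libraries and stood at -5.14, -4.72 and -5.39 in the GSK2-RNAi_oswrky53-labelled ones. It differed from the wild type by 1.39 and by 0.99 without overlap (exact permutation p = 0.2 each), the first of which became 0.83 with quantile normalization, and the 2 transgenic groups overlapped (difference -0.41, and -0.025 with quantile normalization; exact permutation p = 0.5 and 1). With adjustment over the 9 ratio tests the lowest p was 0.36, and this design cannot reach the 0.05 threshold.

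**Figure D4:**
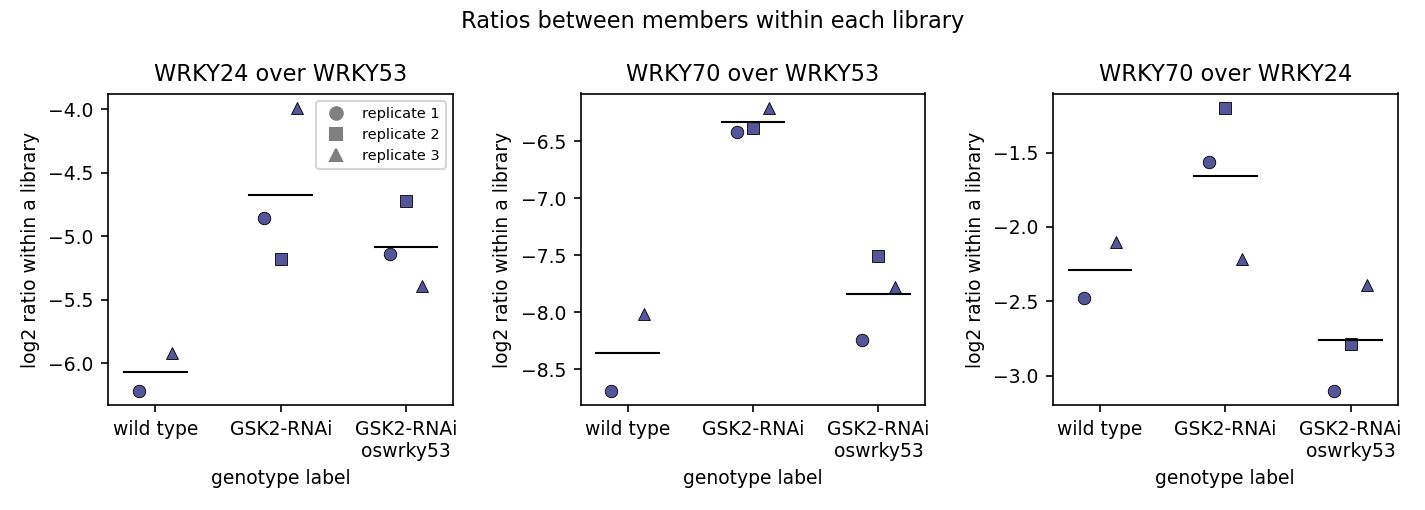
Log2 ratios between members within each of 8 libraries (vertical axes) by genotype label, with lines at the group means. The ratio of WRKY70 to WRKY53 lies between -6.42 and -6.21 in the GSK2-RNAi-labelled libraries and at -7.50 or below in the other 5 libraries.

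Libraries of the same genotype also varied, and partly together. Among the GSK2-RNAi-labelled libraries, replicate 3 was highest for each of the 3 genes, by 0.11 for WRKY53, 0.80 for WRKY24 and 0.24 for WRKY70 above the group mean on the log2 scale. Among the GSK2-RNAi_oswrky53-labelled ones, replicate 3 was lowest for each, at -0.44, -0.75 and -0.38. Replicate 1 of that genotype was highest for WRKY53, at 0.52 above its group mean, and replicate 2 was highest for WRKY70, at 0.26. Over the 8 libraries the deviations from group means had a Pearson r of 0.81 for WRKY24 with WRKY70, 0.67 for WRKY53 with WRKY24 and 0.43 for WRKY53 with WRKY70. These values share libraries and their scaling and are given as a description.

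**Figure D5:**
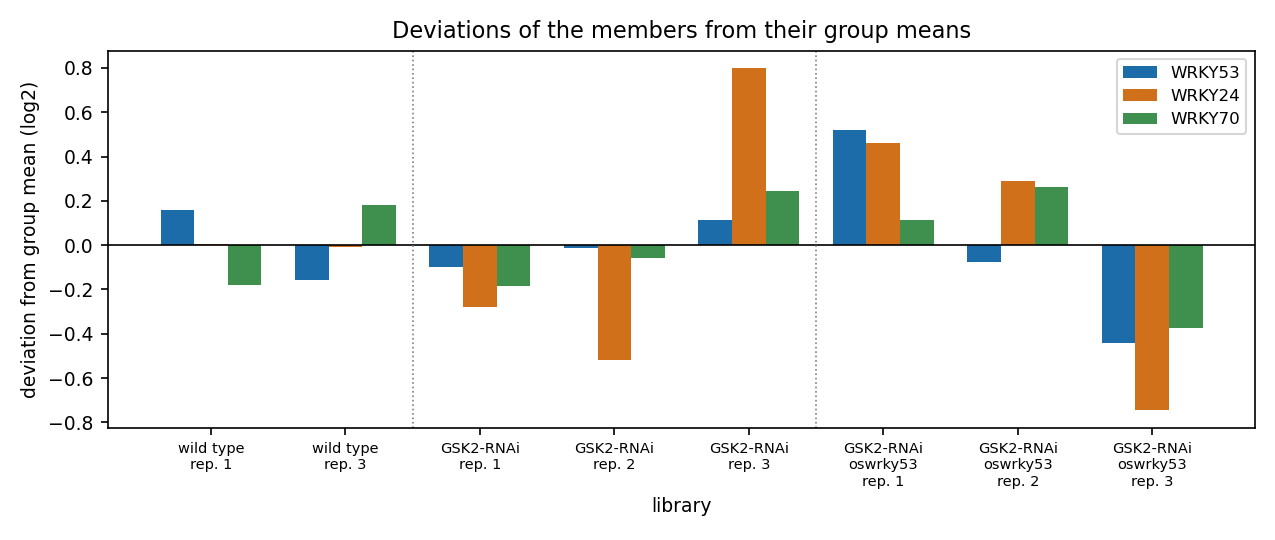
Deviation of each gene from its group mean on the log2 scale (vertical axis) in each of the 8 libraries, with dotted lines between genotypes. Replicate 3 labelled GSK2-RNAi_oswrky53 is the library in which the 3 genes lie lowest together, from -0.75 to -0.38.

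The genes with the most similar pattern were looked for among 20109 loci with a group mean of at least 50, by Pearson r of log2 values over the 8 libraries, which fall into 3 genotypes and share library scaling. WRKY53 and WRKY24 were close to each other, with r = 0.92, and 67 loci were closer to WRKY53 than WRKY24 was. WRKY70 was closer to WRKY24 (r = 0.89) than to WRKY53 (r = 0.77). It was closer still to GSK2 (r = 0.95), although 269 loci were nearer to WRKY70 than GSK2 was. The pattern of WRKY70 was a common one, since 1051 loci (5.23%) had r above 0.9 with it, against 182 (0.905%) for WRKY24 and 131 (0.651%) for WRKY53.

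Among genes with a checked name, WRKY53 was most like WRKY71, a WRKY gene of another class (r = 0.95), followed by WRKY24, by EIL1, a transcription factor of ethylene signalling (r = 0.92), and by BZR1, a transcription factor of brassinosteroid signalling (r = 0.88). WRKY71 stood at 185 and 242 in the wild type, at 645, 745 and 769 in the GSK2-RNAi-labelled libraries and at 991, 533 and 391 in the GSK2-RNAi_oswrky53-labelled ones. As for WRKY53, the highest library was replicate 1 labelled GSK2-RNAi_oswrky53. EIL1 followed the same libraries over a smaller range, from 7592 to 12769, the latter in replicate 1 labelled GSK2-RNAi_oswrky53. It was called in no comparison (limma adjusted p from 0.310 to 0.704). The named genes least like WRKY53 were D1, a G protein alpha subunit gene (r = -0.84), and LIC, a repressor of brassinosteroid responses (r = -0.83). Neither was called in any comparison (lowest limma adjusted p = 0.0524 for D1 and 0.0614 for LIC).

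WRKY24 was most like WRKY51 (r = 0.95), BIP1, a chaperone gene of the endoplasmic reticulum (r = 0.93), PT8, a phosphate transporter gene (r = 0.93), and WRKY71 (r = 0.92). WRKY51 stood at 1189 and 1228 in the wild type, at 2106, 2227 and 2659 in the GSK2-RNAi-labelled libraries and at 1957, 2233 and 1952 in the GSK2-RNAi_oswrky53-labelled ones. Its highest library was that of WRKY24, replicate 3 labelled GSK2-RNAi. Least like WRKY24 were LIC (r = -0.89) and GSK4, a kinase gene of the GSK2 family (r = -0.84).

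WRKY70 was most like GID1, the gibberellin receptor gene (r = 0.97), BIP1 (r = 0.96), CAD2, a gene of the last step of lignin monomer synthesis (r = 0.96), and SPL7, a heat stress transcription factor gene (r = 0.96). CAD2 stood at 13.7 and 31.3 in the wild type, at 178, 373 and 339 in the GSK2-RNAi-labelled libraries and at 78.1, 59.0 and 43.7 in the GSK2-RNAi_oswrky53-labelled ones, the same order of groups as WRKY70. Least like WRKY70 were GSK4 (r = -0.97) and PDS, a carotenoid synthesis gene (r = -0.93). GSK4 stood at 826 and 952 in the wild type, at 354, 379 and 383 in the GSK2-RNAi-labelled libraries and at 568, 519 and 638 in the GSK2-RNAi_oswrky53-labelled ones, the reverse order. The genes named by likeness were chosen by r over these same libraries. Their shared or reversed group orders and shared highest libraries are therefore no separate result.

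Genes around the members were counted next, beginning with the kinases. Of 2 measured kinase genes upstream of WRKY53 with a checked name, MPK3 rose in the GSK2-RNAi-labelled libraries against the wild type, where 13.3% of all genes rose, by 1.71 on the log2 scale (limma adjusted p = 0.00792), and MAPK6 (also called MPK6) differed by 0.10 (adjusted p = 0.657). MPK3 stood at 39.7 and 89.2 in the wild type, at 205, 157 and 238 in the GSK2-RNAi-labelled libraries and at 138, 142 and 130.3 in the GSK2-RNAi_oswrky53-labelled ones, so the wild type was lowest without overlap. Of all genes tested, 29.1% lay higher than in the wild type without overlap under GSK2-RNAi and 15.7% under GSK2-RNAi_oswrky53. Between the GSK2-RNAi_oswrky53-labelled and the GSK2-RNAi-labelled libraries, limma called 0 of the 2, where 8.78% of all genes rose and 7.7% fell, and 0 had an unadjusted p under 0.05.

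Of 4 other WRKY genes with a checked name, 2 rose and 0 fell in the GSK2-RNAi-labelled libraries against the wild type, where 13.3% of all genes rose and 11.6% fell. These were WRKY71, by 1.76 (limma adjusted p = 0.00789; 0.0525 without wild type replicate 1), and WRKY51, by 0.94 (adjusted p = 0.00257). The median change of the 4 was 1.35, against 0.02 over all genes tested. In the GSK2-RNAi_oswrky53-labelled libraries against the GSK2-RNAi-labelled ones, 2 of the 4 fell, where 7.7% of all genes fell. These were WRKY62 and WRKY76, neighbours on chromosome 9 that encode repressors of immunity. WRKY71, which is of the same WRKY class as these, was not called there (-0.28, limma adjusted p = 0.572), and neither was WRKY51 (-0.18, adjusted p = 0.340). WRKY76 stood at 2124 and 90.2 in the wild type, at 281, 705 and 1551 in the GSK2-RNAi-labelled libraries and at 3.30, 4.41 and 1.04 in the GSK2-RNAi_oswrky53-labelled ones. WRKY62 stood at 78.1 and 12.3 in the wild type, at 68.1, 157 and 293 in the GSK2-RNAi-labelled libraries and at 0, 3.28 and 0 in the GSK2-RNAi_oswrky53-labelled ones. For both genes the wild type libraries differed widely and overlapped the GSK2-RNAi-labelled ones, and the GSK2-RNAi_oswrky53-labelled libraries were lowest without overlap. Of all genes tested, 19.1% lay lower without overlap under GSK2-RNAi_oswrky53 than under GSK2-RNAi. The share lower than in the wild type was 11.6%. The falls of WRKY62 and WRKY76 had a limma adjusted p of 0.00402 and 0.00511.

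Of 9 measured brassinosteroid genes with a checked name, 2 rose and 2 fell in the GSK2-RNAi-labelled libraries against the wild type, with a median change of -0.37, where 13.3% of all genes rose and 11.6% fell. Besides GSK2, BZR1 rose by 0.75 (limma adjusted p = 0.0105; 0.0628 without wild type replicate 1). The receptor gene BRI1 fell by 1.30 and the synthesis gene D2 fell by 1.96 (adjusted p = 0.00644 and 0.00837). BRI1 and D2 rose in the GSK2-RNAi_oswrky53-labelled libraries against the GSK2-RNAi-labelled ones, by 1.38 and by 1.82 (adjusted p = 0.00607 and 0.012), and GSK2 fell by 2.09 (adjusted p = 0.00067). These were 2 rises and 1 fall among the 9, where 8.78% of all genes rose and 7.7% fell.

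Of 5 genes written down as reported to follow WRKY53 in rice, CHT3 entered the fit through the GSK2-RNAi-labelled libraries alone and is given by its values only. This chitinase gene stood at 0.72 and 3.8 in the wild type, at 57.3, 153 and 402 in the GSK2-RNAi-labelled libraries and at 1.1, 6.57 and 6.22 in the GSK2-RNAi_oswrky53-labelled ones. Of the other 4, 1 rose and 1 fell in the GSK2-RNAi-labelled libraries against the wild type, where 13.3% of all genes rose and 11.6% fell. CHT1, a chitinase gene whose product attacks fungal cell walls, rose by 4.08 (limma adjusted p = 0.0028). ABA8OX2, an abscisic acid breakdown gene, fell by 1.13 (adjusted p = 0.0391), a call lost in 10 of 18 alternative settings, without wild type replicate 3 (adjusted p = 0.209) among them. In the GSK2-RNAi_oswrky53-labelled libraries against the GSK2-RNAi-labelled ones, where 8.78% of all genes rose and 7.7% fell, the directions were opposite: CHT1 fell by 2.45 (adjusted p = 0.0199), and ABA8OX2 rose by 1.42 (adjusted p = 0.0166). The CHT1 call was lost without 1 of 4 libraries, GSK2-RNAi replicate 2 or 3 or GSK2-RNAi_oswrky53 replicate 1 or 2 (adjusted p from 0.0509 to 0.0663). The ABA8OX2 call also ended when GSK2-RNAi replicate 2, GSK2-RNAi replicate 3 or GSK2-RNAi_oswrky53 replicate 3 was left out (adjusted p from 0.053 to 0.057). ABA8OX1, also an abscisic acid breakdown gene, was called in neither comparison and did not follow ABA8OX2. It differed by 1.29 in the first (limma adjusted p = 0.0811) and by 0.04 in the second (adjusted p = 0.964). PBZ1 was not called either, at 0.55 and -0.25 (adjusted p = 0.122 and 0.457). CHT1 stood at 44.1 and 143 in the wild type, at 909.6, 1206 and 2299 in the GSK2-RNAi-labelled libraries and at 165, 201 and 457 in the GSK2-RNAi_oswrky53-labelled ones. The groups were thus in the order of WRKY70, and WRKY53 and WRKY24 did not separate the last 2 groups in that way. Against the wild type, limma called 0 genes of any of these lists in the GSK2-RNAi_oswrky53-labelled libraries, where it called 0.336% of all genes in either direction. At a limma unadjusted p under 0.05, where 8.09% of all genes were higher and 4.88% lower, the 4 WRKY genes gave 2 higher and 2 lower. The 2 kinase genes gave 1 higher, the 9 brassinosteroid genes 2 higher and the 4 reported followers other than CHT3 2 higher.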

How the data were processed

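Flag leaf RNA libraries were made from 1 µg of total RNA with an Illumina TruSeq kit, per the labels' protocols. The table that the authors deposited holds a normalized count signal for each of 38335 transcripts. Build IRGSP-1.0 and the tools DESeq2 1.26.0 and kallisto 0.46.1 are named without a role in the submitters' processing notes; how the counts were normalized is not given in the sources used here. In each library low values lay within 0.1 step of whole multiples in 69.8% to 98.6% of cases, so whole reads were not recovered, no count model was run and no counting intervals are given. Without strand or read sharing stated, near-identical genes could share counts.

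Values were summed per locus. The 25325 loci that reached 10 in 2 or more libraries were fitted as log2(value + 1), with 3 group means over all 8 libraries, in limma 3.58.1 (R 4.3.3, eBayes with intensity trend). A Benjamini-Hochberg adjusted p under 0.05 over all loci was called. The log2 change understates that of low genes, and folds are ratios of group means. A transcript fit (30566 kept) gave the 3 genes the same log2 changes. Ratios were compared with exact permutation tests (scipy 1.17.1, Python 3.11.15). The planned test of transcript shares could not be made with 1 transcript per gene. On simulated data with 100 genes changed 2-fold and 100 changed 4-fold, among 24597, the fit of the GSK2-RNAi-labelled libraries against the wild type recovered 36 and 79 with 7 false calls. The changed genes were drawn only from those above a floor of mean level, so recovery among low genes was not measured. The simulated noise was independent between genes, and far fewer genes were changed than were called in the data.

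Of 381 symbol and locus pairs written by hand, 216 stood in the RefSeq table (ASM3414082v1) on the locus's chromosome and within 2% of its genes of the place expected from 5 neighbouring pairs. Only these names were used, apart from WRKY53 and WRKY70. Named genes were the members, GSK2, for each member the 4 named loci with the highest and the 2 with the lowest r, and up to 5 called genes of each list. Some uncalled list genes are named beside them. The members and lists were chosen with earlier results of these data known. Of 47 other WRKY genes listed 4 passed the name check, of 9 kinase genes 2, of 16 brassinosteroid genes 10, of 9 reported followers 5, of 4 leaf markers 1 and of 6 floral markers 5. Alternatives covered the pseudocount, filter, scaling, trend, groups fitted, replicate block and leaving out each library.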

Additional observations from a re-analysis of the deposited data

How the results depend on the processing

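Of 162 values of the 3 genes under the alternatives, 154 kept their direction and side of the threshold. WRKY53 in the GSK2-RNAi_oswrky53-labelled libraries against the GSK2-RNAi-labelled ones turned to -0.28 with equal totals and to -0.32 with quantile normalization. Equal totals moved the median of all genes to 0.40 and -0.32 in the 2 comparisons with GSK2-RNAi, so that the value of -0.28 lies near that shift. Leaving out 1 library gave WRKY53 from -0.23 to 0.25 there, turned without GSK2-RNAi replicate 1 (-0.015) and without GSK2-RNAi_oswrky53 replicate 1 (-0.23), and WRKY24 from -0.63 to 0.027. Against the wild type it gave WRKY53 from 0.99 to 1.30 under the GSK2-RNAi label and from 0.92 to 1.40 under GSK2-RNAi_oswrky53. WRKY70 lay between -1.60 and -1.28 in the GSK2-RNAi_oswrky53-labelled libraries against the GSK2-RNAi-labelled ones. All 99 ratio values kept their sign, though scaling and single libraries moved their size. Numbers of called genes moved more. From 6290, 4172 and 85 in the order of the report they went to 9507 and 7338 in the first 2 comparisons with equal totals, and to 47 in the third with its own 2 groups fitted alone. With 1 library left out they ran from 3670 to 6911, from 1575 to 4354 and from 53 to 64. Called transcripts, 6134, 3790 and 136, went to 9250 and 6927 with equal totals and to 86 with a minimum of 50, and ran from 2981 to 6590, from 1324 to 3844 and from 82 to 128 with 1 library left out. The cause was not tested, except that leaving out a library removes data. The replicate block gave 3894, 2621 and 32 genes and 3203, 2064 and 49 transcripts, and it changed no call of the 3 genes. Deviations of same-numbered libraries from their group means had r between -0.21 and 0.15 over genes. Deviations within a group of 2 or 3 libraries are tied to each other by construction. These values therefore cannot decide whether same-numbered libraries share more than a number. WRKY70 in the wild type is limited by about 12.0 reads per library.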
